A study of Mus musculus with 4 samples.

Results

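Endothelial peaks are the stretches of open chromatin that were most accessible in the nuclei annotated as vascular endothelial cells (VEC) in mouse inguinal white adipose tissue (iWAT). They were chosen by their measured values. Nuclei were pooled into VEC, Adipocyte+Beige, adipocyte progenitor cells (APC1+APC2), vascular smooth muscle cells (VSMC), macrophages and dendritic cells (Macro+Dend), B cells, and T cells (Tcell+Cd4+Cd8). A peak was kept when it reached at least 25 CPM, a peak's entries per 1e6 entries of the pool, in VEC and at least 4 times its CPM in each of the other 6 pools. The rule kept 622 of 189598 peaks, or 0.328%. Of the 9863 peaks that reached the VEC level, 9241 failed the ratio, so most peaks at this level had under 4 times the CPM of at least 1 other pool. Because the rule used the levels in the pools, they are given as a description, with no test.

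The data are single-nucleus ATAC-seq, in which the Tn5 transposase inserts adapters into open DNA and barcodes assign the reads to nuclei. All animals were male C57BL/6 mice, 8 weeks old, without a transgene, and nuclei came from the whole iWAT depot and were sorted on the DNA stain Draq7, with no gate on a cell type. The day0RT group stayed at 22 °C, and the day1C, day3C and day7C groups were kept at 6.5 °C for 1, 3 or 7 days. The day1CL, day3CL and day7CL groups received 1 mg/kg of CL-316,243 (CL), an agonist of the β3-adrenergic receptor, for as many days. The paper states that CL was given at room temperature, 22 °C. Each of the 7 groups held 3 mice, named in the deposited annotation, and the 21 mice are the replicates. The matrix is binary, with 1 where a nucleus had a read in a peak, so a count is the number of nuclei with an entry. It held 65588856 entries in 32552 nuclei. VEC contributed 351 of these nuclei with 614132 entries and a median of 1072 entries per nucleus, so 1 entry is worth 1.63 CPM and a peak needed 16 entries to qualify. VEC nuclei numbered 3 to 53 per mouse, and the 3 day0RT mice together had 26. Day3C replicate 1 and day1CL replicate 3 held 92 of the 351 VEC nuclei and 32.4% of the VEC entries. Barcode sequences also recurred between mice: 4218 were found in at least 2 mice, and 112 VEC nuclei carried such a barcode.

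Endothelial cells line blood vessels and control the passage of cells, fluid and fuel between blood and tissue. In adipose tissue their capillaries take up lipoprotein lipids, where GPIHBP1 holds lipoprotein lipase at the vessel wall and CD36 carries fatty acids. Their identity depends on ETS family transcription factors such as ERG, FLI1 and ETS1, together with SOX17, SOX18, GATA2 and TAL1. VEGF receptors, the TIE receptors, NOTCH and S1PR1 govern their growth and their junctions, which VE-cadherin (Cdh5) and claudin 5 build.

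The sequences below show how the endothelial peaks look at the DNA level. Each is the central 150 bases of the peak with the highest VEC level in one of the gene lists used here, from the GRCm38.p6 genome of RefSeq, plus strand, named by the protein-coding gene with the nearest transcript start. Capitals mark the letters of an ETS site (AGGAAG, or CTTCCT on the other strand) and of a SOX site (ACAATG, or CATTGT on the other strand), where no capitals means that neither was found in this window.
Egfl7, chr2:26578508-26578657: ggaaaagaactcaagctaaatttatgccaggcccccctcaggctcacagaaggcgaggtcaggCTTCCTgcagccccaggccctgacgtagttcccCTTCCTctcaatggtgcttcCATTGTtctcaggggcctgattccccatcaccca
S1pr1, chr3:115709195-115709344: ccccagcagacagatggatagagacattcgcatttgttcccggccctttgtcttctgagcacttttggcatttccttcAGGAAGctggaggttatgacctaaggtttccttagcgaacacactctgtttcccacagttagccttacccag
Sox17, chr1:4571741-4571890: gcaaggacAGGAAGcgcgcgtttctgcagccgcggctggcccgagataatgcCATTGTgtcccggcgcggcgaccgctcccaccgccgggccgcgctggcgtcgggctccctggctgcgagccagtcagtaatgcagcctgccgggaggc
Cd36, chr5:17924176-17924325: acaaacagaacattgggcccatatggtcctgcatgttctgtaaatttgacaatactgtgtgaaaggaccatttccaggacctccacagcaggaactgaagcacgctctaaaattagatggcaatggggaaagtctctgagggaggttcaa
Apold1, chr6:134981557-134981706: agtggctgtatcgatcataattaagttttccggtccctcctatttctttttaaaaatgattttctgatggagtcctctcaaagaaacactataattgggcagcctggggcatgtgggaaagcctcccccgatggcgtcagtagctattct
Dock6, chr9:21846959-21847108: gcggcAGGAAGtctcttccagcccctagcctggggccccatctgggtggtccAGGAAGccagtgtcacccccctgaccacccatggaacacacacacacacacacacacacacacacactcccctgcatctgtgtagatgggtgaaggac
Ephb4, chr5:137348799-137348948: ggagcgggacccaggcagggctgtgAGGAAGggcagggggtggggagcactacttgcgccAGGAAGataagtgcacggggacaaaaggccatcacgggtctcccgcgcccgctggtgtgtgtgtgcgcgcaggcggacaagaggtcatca
Flt4, chr11:49613502-49613651: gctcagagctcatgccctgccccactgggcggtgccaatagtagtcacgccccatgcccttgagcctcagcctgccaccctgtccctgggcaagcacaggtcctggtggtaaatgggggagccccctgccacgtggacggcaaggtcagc
The windows near Egfl7, a secreted factor of endothelium, and near Sox17 held both kinds of letters. Those near the guanine exchange factor Dock6 and the venous receptor Ephb4 held 2 ETS sites each, that near S1pr1 held 1, and those near Cd36, Apold1 and the lymphatic receptor Flt4 held neither.

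The levels of the 622 peaks in VEC ran from 26.1 to 86.3 CPM with a median of 32.6. An entry was present in 16 to 53 of the 351 VEC nuclei, or 4.56 to 15.1% of them. In the other pools the median level of the same peaks was 1.65 CPM in APC1+APC2, 1.30 in VSMC, 1.22 in Macro+Dend, 1.04 in Adipocyte+Beige, 0.531 in T cells and 0.380 in B cells. APC1+APC2 was the pool with the next highest level at 221 peaks, VSMC at 128, Macro+Dend at 112, Adipocyte+Beige at 106, T cells at 41 and B cells at 14. The median ratio of VEC to the next pool was 9.34, and the lower and upper quartiles were 5.93 and 19.3. Counts in the smaller pools were low: 232 of the peaks had no entry in VSMC, where 3 entries are worth 3.91 CPM.

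**Figure D1:**
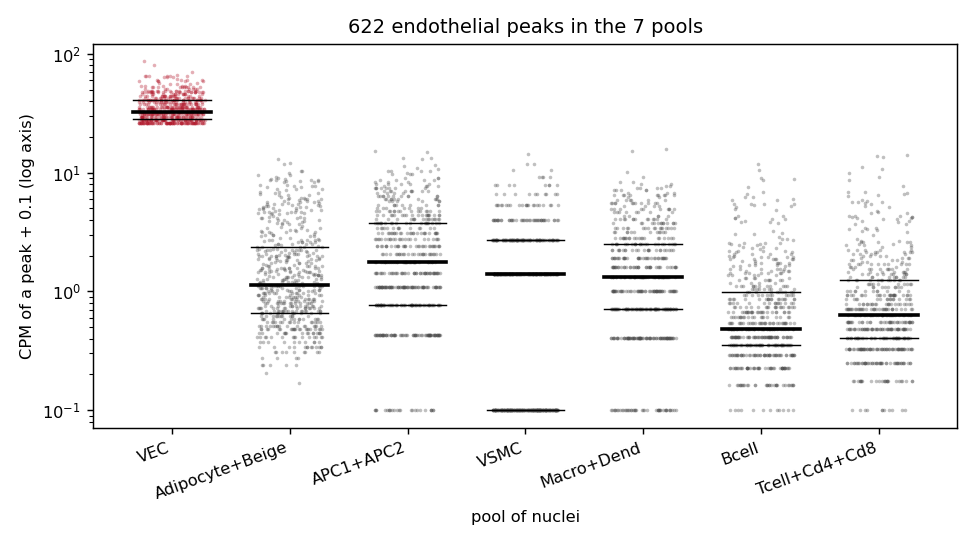
Level of each of the 622 endothelial peaks in the 7 pools of nuclei (CPM + 0.1, log axis); points are peaks, the thick bar is the median and the thin bars are the quartiles. VEC has a median of 32.6 CPM, and the medians of the other pools lie between 0.380 and 1.65 CPM.

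The members close to the thresholds show how the rule acted. Just inside the ratio were peaks near Rnf144a, Arhgap8 and Cda, at 4.02, 4.03 and 4.05 times the next pool, and just outside were peaks near Pik3c2a, Med13l and Exoc6, at 3.99, 3.99 and 3.98 times. At the VEC level, peaks near Hmga2, Gpr182 and 1700020N01Rik stood just inside at 26.1 CPM, and 2 peaks near 1700020N01Rik and 1 near Fyn stood just outside at 24.4 CPM. The 26.1 CPM level is that of 16 entries, which 88 members had, while 98 peaks with 1 entry fewer met the ratio and were not kept.

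Genes known from endothelium were nearest to part of the peaks. A peak is named by the nearest start, which need not be that of the gene it acts on, and such links were not tested. Of 168 genes on 9 lists of endothelial genes, 68 (40.5%) were the nearest gene of at least 1 endothelial peak, against 495 of the 18140 protein-coding genes that were nearest to any peak (2.73%). These 68 genes accounted for 108 of the 622 peaks. Of all peaks nearest to the listed genes, 3.21% were endothelial peaks, against 0.328% of all peaks. The authors used marker genes, among other evidence, to annotate the clusters, and the lists were chosen with earlier results of these data known. The high share of listed genes is therefore no check of the label. No endothelial peak was nearest to any gene on the 7 lists of markers for other cells, which included Adipoq for adipocytes, Pdgfra for stroma, Rgs5 and Pdgfrb for mural cells, Ptprc for lymphocytes and Csf1r for myeloid cells. These lists had 52 to 195 nearest peaks each, so at the 0.328% of all peaks a count near 0 would be usual for a list. The rule itself also keeps out peaks that are open in the compared pools, so this count is no check of the label. The pool labelled VSMC had peaks nearest to skeletal muscle markers. By the same rule it had 1886 peaks, of which 21 were nearest to 6 of 7 skeletal muscle markers (Acta1, Ckm, Myh4, Mylk4, Myod1 and Ttn) and 0 to any of 9 mural markers. The mural list had 95 nearest peaks in all and the skeletal muscle list 68. With 1886 of 189598 peaks in the VSMC set, 0 mural peaks would not be unusual. The rule also keeps out mural peaks that are open in another pool. Without VSMC among the compared pools the rule kept 666 peaks.

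Peaks of the junction and surface genes were the most numerous for their list: 13 of 23 genes had 25 endothelial peaks. The peak at the start of Cdh5, which encodes VE-cadherin, had 37.5 CPM in VEC, 1.30 in VSMC (1 entry) and at most 0.991 in the other pools, and a second peak 5907 bases upstream had 34.2 CPM. At the start of Pecam1, the adhesion molecule CD31, the level was 35.8 CPM in VEC and 3.91 CPM in VSMC. Cldn5 had 30.9 CPM at its start and 35.8 CPM in a peak 43524 bases upstream. Podxl, a sialomucin of the luminal surface, had 4 peaks of 53.7, 32.6, 29.3 and 27.7 CPM, the highest 78686 bases upstream. The adhesion receptors Adgrl4 and Adgrf5 had 3 peaks each, with 52.1 CPM and 45.6 CPM in the highest. The peak 1432 bases upstream of Egfl7 reached 65.1 CPM in VEC (40 nuclei of 15 mice) and 2.73 CPM in Macro+Dend, the next pool. Emcn, Cd34, Mcam, F11r, Jam2, Ocln, Tjp1, Cd93, Clec14a and Mmrn2 had no endothelial peak.

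Among the receptors and ligands of vessel growth, 16 of 32 genes had 26 endothelial peaks. S1pr1, the receptor for sphingosine-1-phosphate, had 3 peaks of 65.1, 52.1 and 39.1 CPM. The first lay 5803 bases downstream of the start, and its next pool was T cells with 9.78 CPM, whereas the others had under 2 CPM in every other pool. Kdr, the main VEGF receptor, had 4 peaks of 34.2, 30.9, 27.7 and 26.1 CPM. None of them was at its start, and the highest lay 142713 bases downstream of it. Flt1, the decoy VEGF receptor, had 52.1 CPM at its start and 6.28 CPM in APC1+APC2. Eng, a co-receptor for BMP9 and TGF-β, had an intronic peak of 61.9 CPM and a peak at its start of 44.0 CPM. Ptprb, the phosphatase VE-PTP, had 50.5 CPM in a peak 8654 bases upstream. The peak at the start of the receptor Tie1 had 34.2 CPM in VEC and 0.661 CPM in APC1+APC2, which is 2 entries. In the NOTCH pathway, Notch1 had 47.2 and 30.9 CPM, Notch4 had 45.6 CPM at its start, and the ligand Dll4 had 42.3 CPM at its start and 27.7 CPM downstream. Tek, Nrp2, Acvrl1, Bmpr2, Plxnd1, Unc5b, Efnb2 and Vegfa were among the 16 genes without one.

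Of the 32 transcription factors, 12 had 22 endothelial peaks. The peak at the start of Erg had 55.4 CPM and entries in VEC nuclei of 17 of 21 mice, as many as any member, and an intronic peak had 50.5 CPM. Fli1 had 3 intronic peaks of 39.1, 32.6 and 26.1 CPM. Ets1, which lymphocytes also use, had 3 peaks of 35.8, 32.6 and 30.9 CPM, none near its start, and T cells were the next pool at the 2 lower ones. Sox17 had no endothelial peak at its start: its pair lay 74461 and 46873 bases upstream, with 60.2 and 34.2 CPM. Sox18 had 30.9 CPM at its start and 34.2 CPM in a peak 3976 bases upstream. Gata2 had 37.5, 29.3 and 27.7 CPM. Tcf15, a factor of lipid-handling capillary endothelium, had 40.7 and 34.2 CPM, and the second of these had 1 entry in Macro+Dend and none in APC1+APC2 or VSMC. Ets2, Elk3, Meox1, Tal1 and Klf4 complete the list with an endothelial peak, while Sox7, Lmo2, Lyl1, Klf2, Foxo1, Hey1 and Epas1 were among those without one.

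Genes of lipid handling and transcytosis had 12 peaks at 9 of 21 genes. The Cd36 peak, 35449 bases upstream, was the fourth highest of all members with 66.8 CPM, and it was shared more than most: APC1+APC2 had 15.2 CPM and Adipocyte+Beige 10.2 CPM. The peak 3463 bases upstream of Gpihbp1 was restricted in comparison, with 40.7 CPM in VEC and 0.311 CPM in Adipocyte+Beige, and the peak at its start had 27.7 CPM. Lpl, the lipase that GPIHBP1 binds and that adipocytes make, had a peak 96948 bases from its start with 32.6 CPM in VEC and 2.91 CPM in Adipocyte+Beige. Aqp7, a glycerol channel, had 39.1 CPM in VEC and 5.08 CPM in Adipocyte+Beige. The caveolar gene Cavin2 had 35.8, 32.6 and 32.6 CPM, and Cav2 had 47.2 CPM in a peak 83227 bases upstream. Fabp4, Plvap, Car4, Cav1, Aqp1 and Pparg had none.

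The regulators of the cytoskeleton and of small GTPases had the highest share of genes with an endothelial peak, 12 of 16, and 15 peaks. Dock6 had an entry in 35 VEC nuclei of 15 mice, and Fgd5 had 47.2 CPM. Palmd had 42.3 CPM in a peak 55670 bases upstream, and Dock9 had 3 peaks of 50.5, 48.8 and 34.2 CPM. The list also covered Afap1l1, She, Arhgap31, Arap3, Arhgap29, Rasip1, Heg1 and Myct1, and left Arhgef15, Rasgrp3, Ccm2l and Krit1 without one. Genes of vascular tone and haemostasis were covered least among the general lists, 5 of 20. They included Ednrb, Apold1, Tfpi and Calcrl, of which Apold1, an early response gene of endothelium, had 65.1 CPM at its start and 9.02 CPM in T cells. Nos3, Vwf, Edn1 and Thbd had no endothelial peak.

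Genes of vessel types were sparsely covered. Of 11 arterial genes, Sox17, Dll4 and Sema3g had 6 peaks. Ephb4 was the 1 gene of 11 on the venous and high endothelial list, with 29.3 CPM, and Flt4 the 1 of 10 on the lymphatic list, with 27.7 CPM. Prox1, Lyve1 and Pdpn of lymphatic vessels and Ackr1, Selp, Chst4 and Glycam1 of venules had none. With 351 nuclei of all vessels in 1 pool, peaks of rare vessel types could fall short of 16 entries, so their absence was not detectable at this depth.

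**Figure D2:**
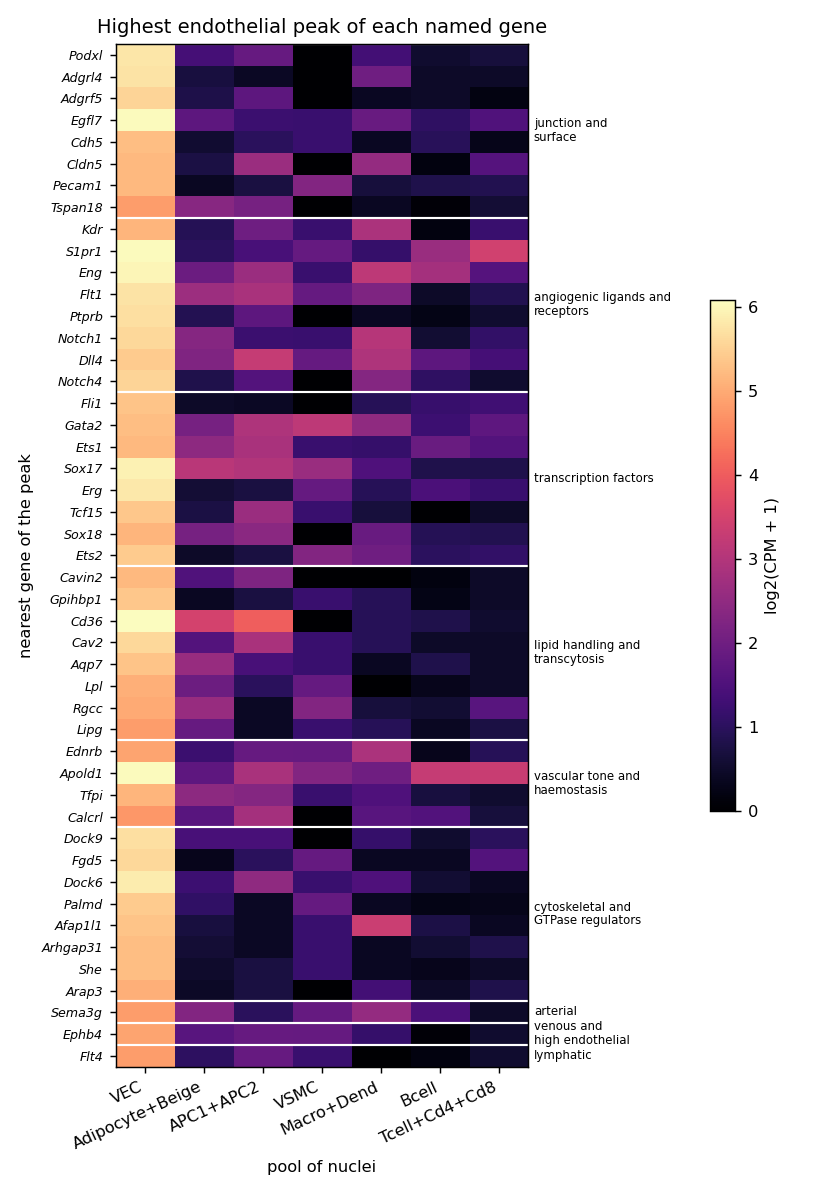
Level in the 7 pools (colour, log2(CPM + 1)) of the highest endothelial peak of each named gene, grouped by gene list. The VEC column is bright in every row, and the Cd36 row also shows APC1+APC2 (15.2 CPM) and Adipocyte+Beige (10.2 CPM).

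The highest members included genes that are on no list. A peak 126027 bases from the start of Usp6nl, a GTPase-activating protein of endocytosis, was the highest with 86.3 CPM (53 nuclei of 17 mice), although Macro+Dend also had 15.8 CPM. A peak 264737 bases upstream of the polarity gene Pard3b followed with 79.8 CPM and had 2.61 CPM in VSMC, the next pool. Zfp422 had 70.0 CPM, and Ppp1r2, Pola2 and Gm29797 had 65.1 CPM each, equal to Egfl7, S1pr1 and Apold1. Tns1, an adaptor of focal adhesions, had the most endothelial peaks of any gene, with 50.5, 45.6, 42.3, 34.2 and 26.1 CPM, and Dapl1 had 4, all more than 50000 bases upstream. The receptor Gpr182 had 3 endothelial peaks of 37.5, 34.2 and 26.1 CPM. The peaks with the highest ratios rested on few entries elsewhere. Those of Tcf15, Itga1, Lnx1, Ptprb, Nxpe2 and Ldb2, one of the Podxl peaks, that of Meox1 and 2 of Col28a1 had 27.7 to 55.4 CPM in VEC and at most 0.608 CPM in every other pool. At Itga1, for example, APC1+APC2 had 1 entry.

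Most endothelial peaks lay away from promoters. Within 2000 bases of a protein-coding transcript start there were 86 of the 622 (13.8%), close to the 13.5% of all peaks, whereas 71.4% of the peaks that reached 25 CPM in VEC were that close. The ratio in the rule drops starts that are open in other pools too. In the sets that the same rule gave for the other pools, 6.49% (APC1+APC2) to 15.4% (VSMC) of the peaks were that close. A further 264 (42.4%) were in introns, 262 (42.1%) between genes and 10 in exons. The median distance to a start was 22155 bases, and for all peaks it was 22033.5 bases. The nearest genes numbered 495, of which 23 had at least 3 endothelial peaks, and 104 members (16.7%) lay within 10 kb of another. In the sets of the other pools, which differ in size, 7.79% (APC1+APC2) to 31.4% (VSMC) did. Their median width was 425.5 bases, against 392 for all peaks.

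The letters of ETS sites were present within 100 bases of the centre of 65.4% of the endothelial peaks and 31.4% of all peaks. At least 2 copies were present in 31.5% and 7.02%. ETS factors also serve blood cells, and the peaks that the same rule gave for T cells, Macro+Dend and B cells held the letters in 47.9, 47.4 and 42.4%, while those of APC1+APC2, VSMC and Adipocyte+Beige held them in 25.1, 21.8 and 20.5%. SOX letters were present in 24.9% of the endothelial peaks and 9.45% of all peaks, and in 4.29 to 11.3% of the peaks of the other pools. Over whole peaks the SOX share was 39.1% in the endothelial peaks and 42.6% in those of Adipocyte+Beige, which are wider with a median of 982 bases. Both kinds of letters were present in 93 endothelial peaks (15.0%) and in 2.89% of all peaks. FOX letters (TGTTTAC, both strands) were present in 5.47% against 2.90% of all peaks, and in 2.05 to 5.19% of the peaks of the other pools, highest in APC1+APC2. Letters of 17 families were counted, and not all are given here. GATA letters (AGATAA) were in 9.81% against 8.63%, and in 13.0% of T cell peaks. E-box letters (CANNTG) were in 61.4% against 68.6%. KLF, NF-kB and EBF letters were in 3.54, 3.05 and 7.56% against 2.21, 1.77 and 5.00%. NF-kB letters reached 4.76% in APC1+APC2 peaks and EBF letters 8.64% in B cell peaks. RUNX letters (TGTGGT) and C/EBP letters (TTGCNNAA) were less frequent in the endothelial peaks than in all peaks, at 10.5 against 17.4% and 6.75 against 14.0%. Some other pools had similar shares: RUNX letters were in 11.3% of APC1+APC2 peaks and C/EBP letters in 7.49% of T cell peaks. The highest shares were 40.9% in T cell peaks for RUNX and 26.8% in Adipocyte+Beige peaks for C/EBP. The longer ETS form ACCGGAAGT, which does not overlap AGGAAG, was in 0 endothelial peaks and in 0.159% of all peaks, too rare for a comparison. Over whole peaks it was in 0.322% and 0.375%. These are counts of letters in the genome and do not show that a factor was bound.

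For ETS and SOX the higher share was present at each base composition and away from promoters. The endothelial peaks had a median GC content of 51.2% and all peaks 48.3%. Within bands of GC content, the ETS share was higher in the endothelial peaks in all 6 bands, at 46.7 against 23.1% in the lowest and 51.8 against 22.8% in the highest, and so was the SOX share, at 50.0 against 14.0% and 17.9 against 3.01%. Without the peaks near a start, 66.0% held ETS letters and 25.7% SOX letters. The letters stood close to the middle of the peaks. In the 50-base steps within 100 bases of the centre, 22.0 to 26.2% of the endothelial peaks held ETS letters, and beyond 250 bases 5.95 to 9.0% did. The endothelial peaks have a median width of 425.5 bases, so steps beyond 250 bases lie outside most of them. ETS letters also rose in the middle of other peaks, to 13.2 to 17.2% of T cell peaks and 8.75 to 10.1% of all peaks in the central steps. SOX letters were present in 6.43 to 8.04% of the endothelial peaks in the central steps and in 1.93 to 4.34% beyond 250 bases. In all peaks they were present in 2.44 to 2.60% in the central steps.

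**Figure D3:**
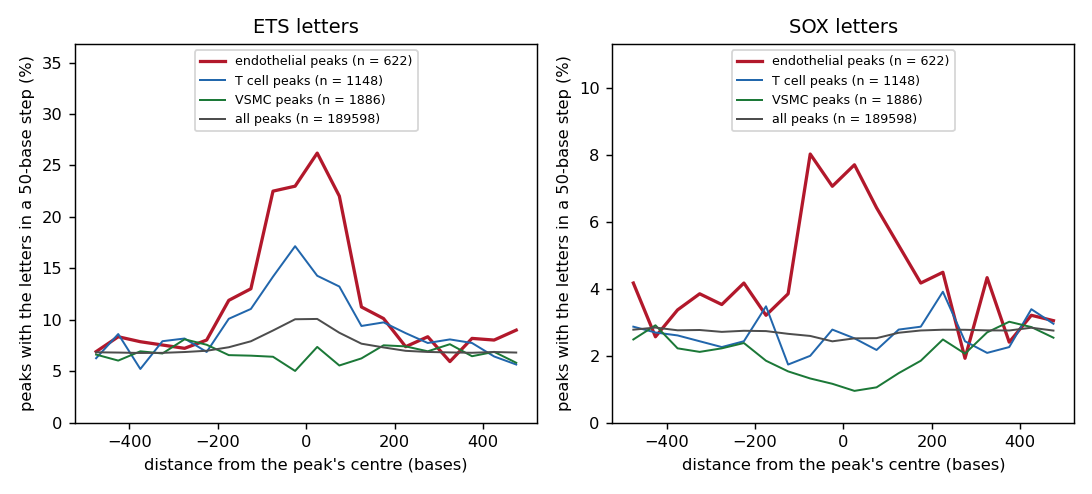
Percent of peaks with ETS (left) or SOX (right) letters in each 50-base step, by distance from the peak's centre in bases, for the endothelial peaks, T cell peaks, VSMC peaks and all peaks. In the endothelial peaks the ETS curve stands at 22.0 to 26.2% within 100 bases of the centre.

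By gene list the counts were small and their differences were not tested. ETS letters were present in 12 of 15 peaks of the GTPase and cytoskeletal regulators, 19 of 26 of the receptors and ligands, 14 of 25 of the junction genes, 11 of 22 of the transcription factors, 7 of 12 of the lipid genes and 1 of 6 of the vascular tone genes. SOX letters were present in 3 of the 6 arterial peaks and 5 of the 12 lipid peaks. Of all members, 215 had no ETS letters, 211 had 1 copy, 135 had 2 and 61 had 3 or more. Peaks near Cyyr1, Adgrd1 and Fry had 5 copies, the most of any.

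In single nuclei the endothelial peaks took a median of 2.10% of the entries of a VEC nucleus, or 24 entries. The quartiles were 1.09 and 4.07%, and 13 of 351 VEC nuclei (3.70%) had no entry in them. Pooled over nuclei the share was 2.22% in VEC, 0.172% in APC2, 0.151% in APC1, 0.139% in Beige, 0.132% in Macro, 0.117% in Adipocyte, 0.105% in VSMC and 0.0545% in Bcell. Of the 32201 other nuclei, 1 reached the VEC median and 25 reached its lower quartile. At least 1 peak of the junction genes was open in 57.8% of VEC nuclei and 12.1% of Adipocyte nuclei, whose median depth was higher at 2561 entries. The same shares were 59.3 and 11.5% for the receptors and ligands, 57.5 and 12.2% for the transcription factors, and 41.0 and 12.7% for the lipid genes. The peaks were chosen for higher levels in these same VEC nuclei. The gaps between VEC and other nuclei therefore follow from the rule and are no test of it.

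**Figure D4:**
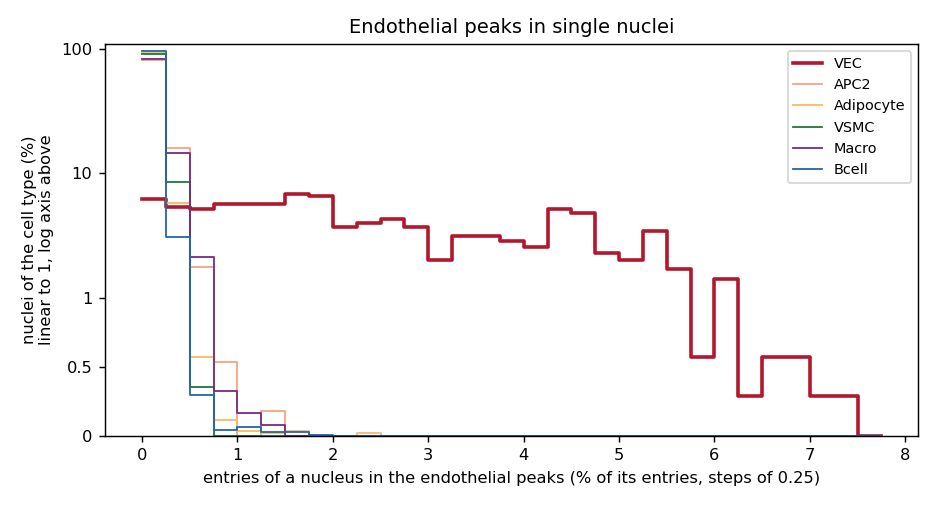
Distribution of the percent of a nucleus's entries that fell in the endothelial peaks (x axis, steps of 0.25%) for 6 cell types; the y axis gives the percent of nuclei of the type. VEC nuclei spread to 7.39%, and 3.70% of them had no entry in these peaks.

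VEC nuclei were not uniform. In 63 of 351 the entries in the peaks of another pool outnumbered those in the endothelial peaks. That other set was the VSMC set for 34, the T cell set for 30, the B cell set for 24, APC1+APC2 for 17, Adipocyte+Beige for 15 and Macro+Dend for 3, and some nuclei counted under several. The 41 VEC nuclei with under 0.5% of their entries in the endothelial peaks came from 14 mice and had 0.627% in VSMC peaks, 0.410% in Adipocyte+Beige peaks and 0.242% in APC1+APC2 peaks. The 91 nuclei with 4% or more came from 20 mice and had 4.83% in endothelial peaks, 0.245% in VSMC peaks, 0.0681% in Adipocyte+Beige peaks and 0.0186% in APC1+APC2 peaks. The VSMC set is the largest, with 1886 peaks, and it took 0.497% of the entries of all Adipocyte+Beige nuclei and 0.368% of those of APC1+APC2 nuclei. The part of other cells' DNA or of mixed nuclei in these shares was not tested.

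The selection was repeated with each mouse left out. When the rule was applied without a mouse, 553 to 755 peaks were kept, and 382 of the 622 (61.4%) were kept with every mouse left out in turn. The peaks chosen without a mouse took 1.00 to 3.97% of that mouse's VEC entries (median 1.85%), and 5.97 to 16.5 times the share in its highest compared pool. VEC was above every compared pool in 21 of 21 mice. Pools with fewer than 10 nuclei in a mouse were not compared, which left out VSMC in the day0RT and day1C mice and in some others. The cell type annotation itself was made by the authors with all mice together, so these values describe spread over mice and are not an independent test. Each member had VEC entries in 6 to 17 mice with a median of 10, and the mouse with the most entries held 12.5 to 56.3% of them (median 24.1%).

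The comparison of treatments asked whether VEC became more numerous or changed their accessible chromatin with cold or CL. VEC made up 0.445, 0.908 and 0.306% of the nuclei of the 3 day0RT mice, a mean of 0.553% ± 0.315 (SD, n = 3). In the cold groups the share ran from 0.406 to 2.51% with a mean of 1.06% ± 0.608 (SD, n = 9), and in the CL groups from 0.216 to 4.77% with a mean of 1.42% ± 1.37 (SD, n = 9). The ranges of both treatments overlapped that of day 0. The difference to day 0 was 0.510 percentage points for cold (two-sided exact permutation test, p = 0.118, adjusted p = 0.164 over the 2 comparisons) and 0.872 for CL (p = 0.164, adjusted p = 0.164), where the smallest p this design can give is 0.00909. Without day3C replicate 1 the cold difference was 0.329, and without day1CL replicate 3 the CL difference was 0.453. B and T cells made up 36.8% and 11.9% of the nuclei in these 2 mice, and 14.1 to 90.8% in the others. Among nuclei that were not lymphocytes, the differences were 1.49 for cold (exact permutation, p = 0.1, adjusted p = 0.118) and 1.70 for CL (p = 0.118, adjusted p = 0.118).

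Within VEC, the share of entries in the endothelial peaks overlapped between the 3 arms. It was 1.94% ± 0.287 (SD, n = 3) at day 0, 2.16% ± 0.277 (SD, n = 9) in cold and 2.43% ± 1.11 (SD, n = 9) with CL. The lowest and highest mice were both in day1CL, replicate 2 with 1.04% from 16 nuclei and replicate 1 with 4.42% from 3 nuclei. The share is a score over the members, and its differences between the arms were not tested. Day 0 held 5.62% of the VEC entries, so members were chosen mostly through the treated mice. That choice by itself can put the day 0 share below the others.

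**Figure D5:**
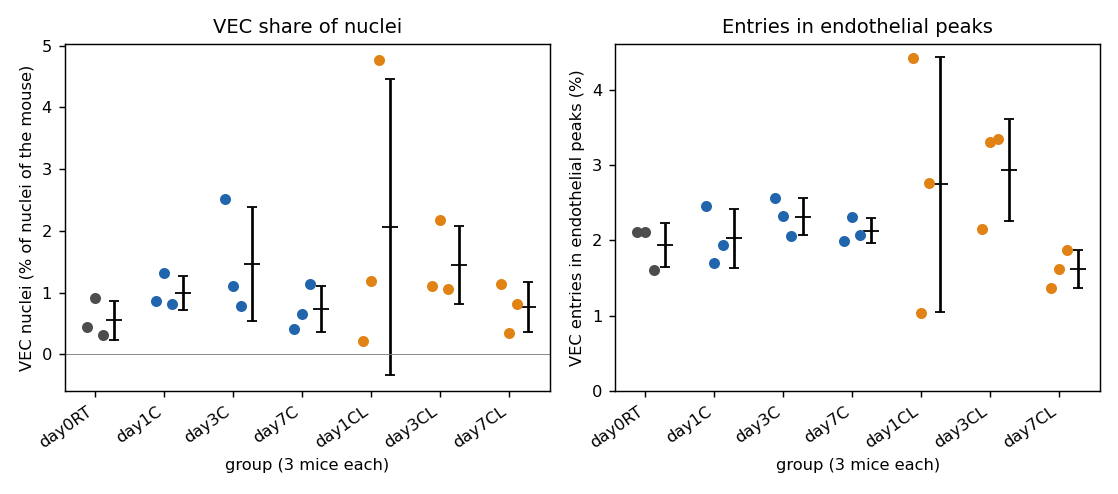
VEC share of nuclei (%) and share of VEC entries in the endothelial peaks (%) for each of the 21 mice by group; points are mice, and bars give the mean ± SD of 3 mice. The highest VEC shares are 4.77% (day1CL replicate 3) and 2.51% (day3C replicate 1), and the highest share of entries is 4.42% in day1CL replicate 1.

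Counts of single peaks were small in each mouse. The Erg promoter peak had 1, 0 and 1 entries in the day0RT mice, 0 to 5 in the cold mice with a median of 1, and 0 to 6 in the CL mice with a median of 2. The S1pr1 peak had 0, 0 and 0 entries in the day0RT mice, 0 to 9 in cold with a median of 2, and 0 to 7 in CL with a median of 1. The Cd36 peak had 1, 0 and 1 entries at day 0, 0 to 8 in cold with a median of 1, and 0 to 6 in CL with a median of 2. At all 3 peaks the cold and CL mice overlapped with each other and with day 0. The day 0 pool held 34532 VEC entries, 5.62% of the total, so 3 entries there are worth 86.9 CPM, above the day 0 level of most members. No entry was present at day 0 for 233 of the 622 peaks, which allows a level of up to 86.9 CPM, and the median of all members was 29.0 CPM, which is 1 entry, against 34.3 CPM in cold and 34.7 CPM with CL.

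No change in an endothelial peak passed the test. VEC counts were summed per mouse over the 20 mice with at least 5 VEC nuclei, which left out day1CL replicate 1, and tested with edgeR's quasi-likelihood test with Benjamini-Hochberg adjustment, with the days of a treatment in 1 class. The default filter on low counts left 0 peaks. With a minimum count of 1, chosen after seeing the data, 10245 peaks and 605 of the 622 members were tested, and 0 were called in cold against day 0, CL against day 0 or CL against cold (0% of all peaks tested in each). At an unadjusted p under 0.05 there were 563, 744 and 274 peaks, and DESeq2 called 0 with 194, 272 and 67 peaks at that unadjusted level. The median log2 fold of the members was 0.85 in cold against day 0, 0.96 in CL against day 0 and 0.12 in CL against cold, and that of all peaks tested was 0.63, 0.71 and 0.04. The rule asked for 16 VEC entries over all mice, and day 0 held 5.62% of the VEC entries. Members were thus chosen mostly through the treated mice, which by itself can raise their folds against day 0. The gap to all peaks is therefore no result about the members.

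The members with the smallest p were S1pr1, Gm34653 and Eng in CL against day 0, and Caskin2, AC117239.2 and S1pr1 in cold against day 0. All had 0 entries at day 0, and their edgeR adjusted p was 0.541 and 0.613. The S1pr1 peak had a mean of 66.7 CPM per library in cold and 81.1 CPM with CL, and no fold is given because these levels are under that of 3 entries at day 0. In CL against cold, Gm9833 had a log2 fold of 1.88 ± 0.71 (SE), Arhgap26 -1.62 ± 0.67 and Ablim3 1.38 ± 0.61, each with an edgeR adjusted p of 0.993.

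Summing all peaks over a gene and 2000 bases upstream gave the same outcome. With the default filter 199 genes were tested, and with a minimum count of 3, chosen after seeing the data, 3868. edgeR called 0 genes in each comparison with either filter (0% of 3868), and at an unadjusted p under 0.05 there were 9, 17 and 13 of the 199 and 190, 252 and 151 of the 3868. DESeq2 also called 0, with 107, 146 and 81. With the default filter, leaving out 1 library made calls. In CL against day 0, Cmah (lower) and Epas1 (higher) passed without day1CL replicate 2 (lowest edgeR adjusted p = 0.0251, Cmah), Cmah and Macrod2 (both lower) without day7CL replicate 1 (lowest edgeR adjusted p = 0.0392, Cmah), and Cmah without day0RT replicate 2 (edgeR adjusted p = 0.0486). In CL against cold, Dnmt3a (lower) passed without day3C replicate 1 (edgeR adjusted p = 0.0245). Of the 168 endothelial genes 80 were tested and 0 passed in either direction, with 5, 10 and 6 at an unadjusted p under 0.05. Their median log2 fold was 0.43, 0.44 and 0.04, beside 0.30, 0.34 and 0.03 for all genes. Pecam1 had 465 ± 256 CPM (SD, n = 3) at day 0, 477 ± 199 (n = 9) in cold and 556 ± 239 (n = 8) with CL. Kdr had 246 ± 161, 190 ± 64.2 and 159 ± 102 CPM in the same order. Epas1, which encodes the hypoxia factor HIF-2α and is named here after its values were seen, had the lowest adjusted p of the endothelial genes. Its levels were 106, 105 and 0 CPM in the day0RT mice, 0 to 756 CPM in cold and 94.7 to 1018 CPM with CL, so the groups overlapped, and its log2 fold in CL against day 0 was 3.02 ± 0.84 (SE, edgeR adjusted p = 0.441). Cd36 had 98.1 ± 106, 289 ± 186 and 427 ± 330 CPM, with a log2 fold of 2.25 ± 0.78 in CL against day 0 (SE, edgeR adjusted p = 0.576). Its day0RT mice had 0, 210 and 84.4 CPM. In these gene sums 1 entry is worth 106, 105 and 84.4 CPM in the day0RT mice. Epas1 and Cd36 thus had few entries at day 0, and their folds are uncertain. These libraries could miss even large differences against day 0. Counts were simulated with the same depths and 1 spread for all genes, and 4202 genes were tested. Changes were put into CL only, so cold against day 0 was not covered. In CL against day 0, 0 of 81 changes of 2-fold and 14 of 76 of 4-fold were found. In CL against cold, 17 of 81 and 62 of 76 were found, and 3 genes without a change were called.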

How the data were processed

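By their account, the authors aligned the reads to mm10 with Bowtie2, called peaks with MACS2, removed duplicates, doublets and low-quality nuclei, and annotated 12 cell types with Signac. They deposited counts as a binary matrix of peaks by nuclei, raw and without normalization, with the mouse, group and cell type of each nucleus. The 4 deposited samples are lanes that each hold all treatments, so mice were taken from that annotation. The study's reporting summary names independent batches of the assay without saying which mice each held, so no within-batch value could be given, and batch effects in the spread between mice were not tested.

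CPM is a peak's entries over all entries of a pool, times 1e6. Peaks were given the nearest GENCODE vM21 protein-coding start, and letters were counted on both strands of GRCm38.p6. Counts per mouse were tested with edgeR 4.0.16 (TMM) and DESeq2 1.42.0 in R 4.3.3, at an adjusted p under 0.05, and shares with exact permutation tests in scipy 1.17.1 (Python 3.11.15). The SE of a log2 fold is its size over the square root of edgeR's F. Steps were tested on simulated data. The planned filter left no peaks, so lower minimum counts were added after seeing the data. Intervals cover counting error only.

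The members, gene lists and letters were chosen with earlier results of these data known. Named were, for each list, up to 8 genes with the most members and then the highest VEC level; the 10 highest members by level and by ratio; genes with at least 5 members; the 3 lowest p in each comparison; and the peaks nearest the thresholds. One gene that this rule names is not reported here.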

Additional observations from a re-analysis of the deposited data

Results flagged for a closer look

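In 16 sets of 9 treated mice, the highest or the lowest mouse was compared with its nearest neighbour (Dixon's test), and 6 sets exceeded the 95% limit, where chance gives about 1 in 20. Apart from the VEC shares of nuclei, these sets are shares over the members, so the sets are not independent of each other. The VEC share of nuclei was 2.51% (95% Wilson interval 1.84 to 3.41%, 39 of 1553 nuclei) in day3C replicate 1 with the next cold mouse at 1.31%, and 4.77% (3.67 to 6.19%, 53 of 1111) in day1CL replicate 3 with the next CL mouse at 2.17%. The same mice had the highest share of all their entries in the endothelial peaks, 0.160% with the next at 0.118% and 0.226% with the next at 0.152%. Lymphocytes made up 36.8% and 11.9% of their nuclei, and among the other nuclei their VEC shares were 3.97% and 5.41%, not apart from the rest. Day1CL replicate 1 stood apart in the share of entries in the endothelial peaks of its Adipocyte+Beige nuclei, 0.164% with the next at 0.135%, and of its APC1+APC2 nuclei, 0.323% with the next at 0.180%. This mouse had 128 nuclei that were not lymphocytes, the fewest of the 21.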

How the results depend on the processing

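The number of endothelial peaks was 1398 at a VEC level of 15 CPM and 167 at 40 CPM, against 622, while a fold of 3 or 6, the mean over mice, nuclei of at least 2000 entries and leaving out VSMC gave 794, 463, 696, 544 and 666. Leaving out each mouse gave 553 to 755. The share near a start was 10.1% within 1000 bases and 21.2% within 5000 bases. Over the whole peak, 81.5% held ETS letters and 39.1% SOX letters, against 52.4% and 21.03% of all peaks. The contrast with the other sets was then smaller or reversed: ETS letters were in 79.9% of T cell, 79.0% of B cell, 78.5% of Macro+Dend and 73.0% of Adipocyte+Beige peaks, and SOX letters in 42.6% of Adipocyte+Beige, 35.5% of APC1+APC2 and 35.3% of B cell peaks. The Adipocyte+Beige peaks have a median width of 982 bases and the endothelial peaks 425.5. The difference in VEC share was 0.329 to 0.687 for cold and 0.453 to 1.05 for CL with each mouse left out, and no adjusted p fell under 0.05.

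The number of peaks called was 0 under every alternative run. With each mouse left out, the number of genes called was 0 in cold against day 0, 0 to 2 in CL against day 0 and 0 to 1 in CL against cold, all with the default filter. The called genes were Cmah without day0RT replicate 2 (edgeR adjusted p = 0.0486), Cmah and Epas1 without day1CL replicate 2 (lowest 0.0251, Cmah), Cmah and Macrod2 without day7CL replicate 1 (lowest 0.0392, Cmah), and Dnmt3a in CL against cold without day3C replicate 1 (0.0245). With all 20 libraries the lowest adjusted p was 0.0765, for Cmah, in CL against day 0 and 0.366, for Dnmt3a, in CL against cold. The cause was not tested.

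Mice of different groups share replicate numbers. The correlation of their deviations over 57 pairs with the same number had a median of 0.000661 and ran from -0.0594 to 0.0433. Over 114 pairs with other numbers the median was -9.00e-05. With so few VEC entries per mouse, counting noise alone can hold such correlations low, so this check could not detect a shared batch. The numbers were not taken to pair the mice. With the replicate block, 0 peaks and 0 genes were called in each comparison. Because the default filter left no peaks, DESeq2, RLE factors, the block, day 7 alone and leaving out mice were run for peaks with the lower minimum count or not at all, and the fits of genes at starts alone and of day 7 with the default filter were not run for want of features. With at least 10 VEC nuclei per mouse 1 day 0 library remained, which was assumed to vary like the others.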

Other observations

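The share of entries in the endothelial peaks was also computed for nuclei other than VEC. Over all of them together it was 0.0739% ± 0.00423 (SD, n = 3) at day 0, 0.0931% ± 0.0100 (SD, n = 9) in cold and 0.101% ± 0.0187 (SD, n = 9) with CL, and the 3 day 0 mice, at 0.0705 to 0.0786%, were below every treated mouse. This share also depends on the cell mix, as lymphocytes made up 11.9 to 90.8% of a mouse's nuclei. In B cell nuclei alone the share was 0.0364 to 0.0448% at day 0, 0.0510 to 0.0675% in cold and 0.0475 to 0.0754% with CL, and the groups again did not overlap with day 0. Shares over other peak sets were not computed for B cell nuclei by mouse, so a shift of these peaks cannot be told apart from a general one. In Adipocyte+Beige nuclei the ranges overlapped, at 0.109 to 0.127%, 0.107 to 0.134% and 0.112 to 0.164%. In APC1+APC2 nuclei they overlapped too, at 0.137 to 0.173%, 0.130 to 0.180% and 0.138 to 0.323%, and the day 0 mean of 0.161% was above the cold mean of 0.154%. These are shares over the members, and their differences between the groups were not tested. The rule also used the levels in these other nuclei. Day 0 held 5.62% of the VEC entries, so members were chosen mostly through the treated mice. The part of this choice in the lower day 0 shares was not tested.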
